A study of Mus musculus with 24 samples.

Results

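The B-cell receptor signalling genes described here are Cd79a, Cd79b, Blnk, Syk, Btk, Blk, Lyn, Cd22 and Cd72, 9 of the 21631 protein-coding genes of the annotation. They were chosen by name for their place in the receptor's signalling chain, and each was followed over its gene body and 10 kb on both sides on the mouse build mm10. Chromatin accessibility was measured by ATAC-seq, in which a transposase cuts and tags open DNA, in sorted B-cell progenitors of mouse marrow. The mice were Mki67-/-, lacking the gene of the proliferation marker Ki-67, or wild type (WT). Each genotype was sampled at 3 stages, which in order of development are pre-pro-B, then pro-B, then small pre-B, with 4 libraries in each of the 6 groups. The labels give no strain, age or sex and no markers for the sort, and nothing in them says whether the deletion is in every cell or which part of Mki67 was removed. Whether replicates are different mice is not given either, and p-values therefore cover only the spread between these libraries, which may be technical.

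The receptor on a B cell is an immunoglobulin that binds antigen and has almost no tail inside the cell. It signals through a pair of partner proteins, Ig-alpha (Cd79a) and Ig-beta (Cd79b), whose tails are phosphorylated by Src-family kinases such as Lyn and Blk. The kinase Syk then docks on these tails and, with the adaptor Blnk, brings in the kinase Btk, while the surface receptors Cd22 and Cd72 recruit phosphatases that restrain the signal. Before a complete receptor exists, pro-B and pre-B cells use the same partner proteins and kinases for the pre-B-cell receptor, which tests the newly joined heavy chain.

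Each library had its own deposited peak list, of 76992 to 206056 entries that joined to 54387 to 88946 peaks. Stages were compared on each library's 40000 strongest peaks, ranked by -log10 q, the significance of a peak over its local background, and genotypes on the whole deposited lists. Read depth is not given in the sources used here; the -log10 q of the 40000th peak ranged from 11.2, in Mki67-/- small pre-B replicate 1, to 43.8. Chromosome Y, which was left out, had 12 to 17 peaks in 9 libraries and 22 to 33 in the other 15, and the 9 were replicates 1 and 2 of every pre-pro-B and pro-B group and Mki67-/- small pre-B replicate 1. Pre-pro-B libraries had wider peaks, with a median width of 627 to 826 bp among the 40000 strongest, against 442 to 539 bp in pro-B and 396 to 479 bp in small pre-B libraries. Lists of 9 early B-lineage genes, 8 T and NK genes, 8 myeloid genes and 4 erythroid genes checked the labels. The early B-lineage genes summed to 22 to 27 peaks in each pre-pro-B library, with Vpreb2 at 0 in all 8, and to 46 to 63 in each pro-B or small pre-B library. The T and NK genes summed to 14 to 19 peaks in the pre-pro-B, 8 to 12 in the pro-B and 6 to 8 in the small pre-B libraries, with Cd3e, Cd8a and Ncr1 at 0 in both later stages. The myeloid genes summed to 16 to 21, 12 to 17 and 15 to 19 peaks in the same order, with S100a8 at 0 throughout, and the erythroid genes to 7 to 8, 5 to 9 and 5 to 8, with Gata1 at 0 throughout. The part of these lists and of peak width in the results below was not tested. In such bulk samples a different mix of cells and a change within each cell cannot be told apart. Mki67 itself held 1 to 7 deposited peaks in Mki67-/- and 2 to 7 in WT libraries (n = 12 each), which does not check the deletion, since its place is not given.

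Promoters of 6 of the 9 genes were found in the RefSeq table of GRCm38.p6, the assembly of mm10, which runs from 250 bases before to 50 bases after each listed start. The 4 shown are a pair whose start had no peak among the 40000 strongest in any pre-pro-B library and had one in all 16 later libraries (Cd79a and Cd22), and a pair whose start had a peak in all 24 (Blnk and Cd72). Each is read 5′ to 3′ along its gene, and all of its bases lie in a region of joined peaks. Capitals mark letters of motifs named after factors of early B-cell development, searched on both strands.
Cd79a, plus strand of chr7:24897247-24897546: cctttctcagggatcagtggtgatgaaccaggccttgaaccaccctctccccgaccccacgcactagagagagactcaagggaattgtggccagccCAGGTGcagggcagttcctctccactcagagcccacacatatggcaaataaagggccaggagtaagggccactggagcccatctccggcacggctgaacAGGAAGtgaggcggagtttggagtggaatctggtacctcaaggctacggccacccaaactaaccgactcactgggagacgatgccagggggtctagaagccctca
Cd22, minus strand of chr7:30878979-30879278: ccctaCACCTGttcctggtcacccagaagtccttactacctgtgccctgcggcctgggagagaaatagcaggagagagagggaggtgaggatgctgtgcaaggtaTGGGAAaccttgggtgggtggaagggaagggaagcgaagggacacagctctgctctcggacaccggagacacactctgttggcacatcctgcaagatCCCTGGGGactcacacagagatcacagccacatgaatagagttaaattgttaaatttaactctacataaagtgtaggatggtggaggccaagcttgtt
Blnk, minus strand of chr19:40994172-40994471: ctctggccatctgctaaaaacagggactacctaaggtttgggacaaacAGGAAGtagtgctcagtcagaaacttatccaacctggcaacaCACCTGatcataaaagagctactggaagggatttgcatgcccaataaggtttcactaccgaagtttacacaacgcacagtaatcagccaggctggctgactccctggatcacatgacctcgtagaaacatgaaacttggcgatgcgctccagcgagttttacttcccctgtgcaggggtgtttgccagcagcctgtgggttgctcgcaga
Cd72, minus strand of chr4:43454577-43454876: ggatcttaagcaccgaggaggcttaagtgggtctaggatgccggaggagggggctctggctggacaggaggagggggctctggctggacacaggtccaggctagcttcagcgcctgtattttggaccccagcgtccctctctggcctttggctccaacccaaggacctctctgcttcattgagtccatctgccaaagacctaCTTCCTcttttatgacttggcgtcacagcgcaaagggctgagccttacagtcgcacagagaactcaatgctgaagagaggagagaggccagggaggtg
The motifs were the EBF1 core CCCNNGGG, held by 13.7% of the 32851 listed promoters, the E2A E-box CAGCTG or CAGGTG (32.9%), the Runx motif TGTGGT (16.8%), the PU.1 and Ets motif AGGAAG (35.4%) and the Ikaros motif TGGGAA (25.6%). The Cd22 window held 1 EBF1 core, 1 E-box and 1 Ikaros motif. The windows of Cd79a and Blnk each held 1 E-box and 1 PU.1 and Ets motif, and that of Cd72 held 1 PU.1 and Ets motif. No 2 matches overlapped. The Runx motif was in none of the 4 windows. A match is a description of letters only, and no motif was in both windows that gained a peak and in neither of those that kept one.

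**Figure D1:**
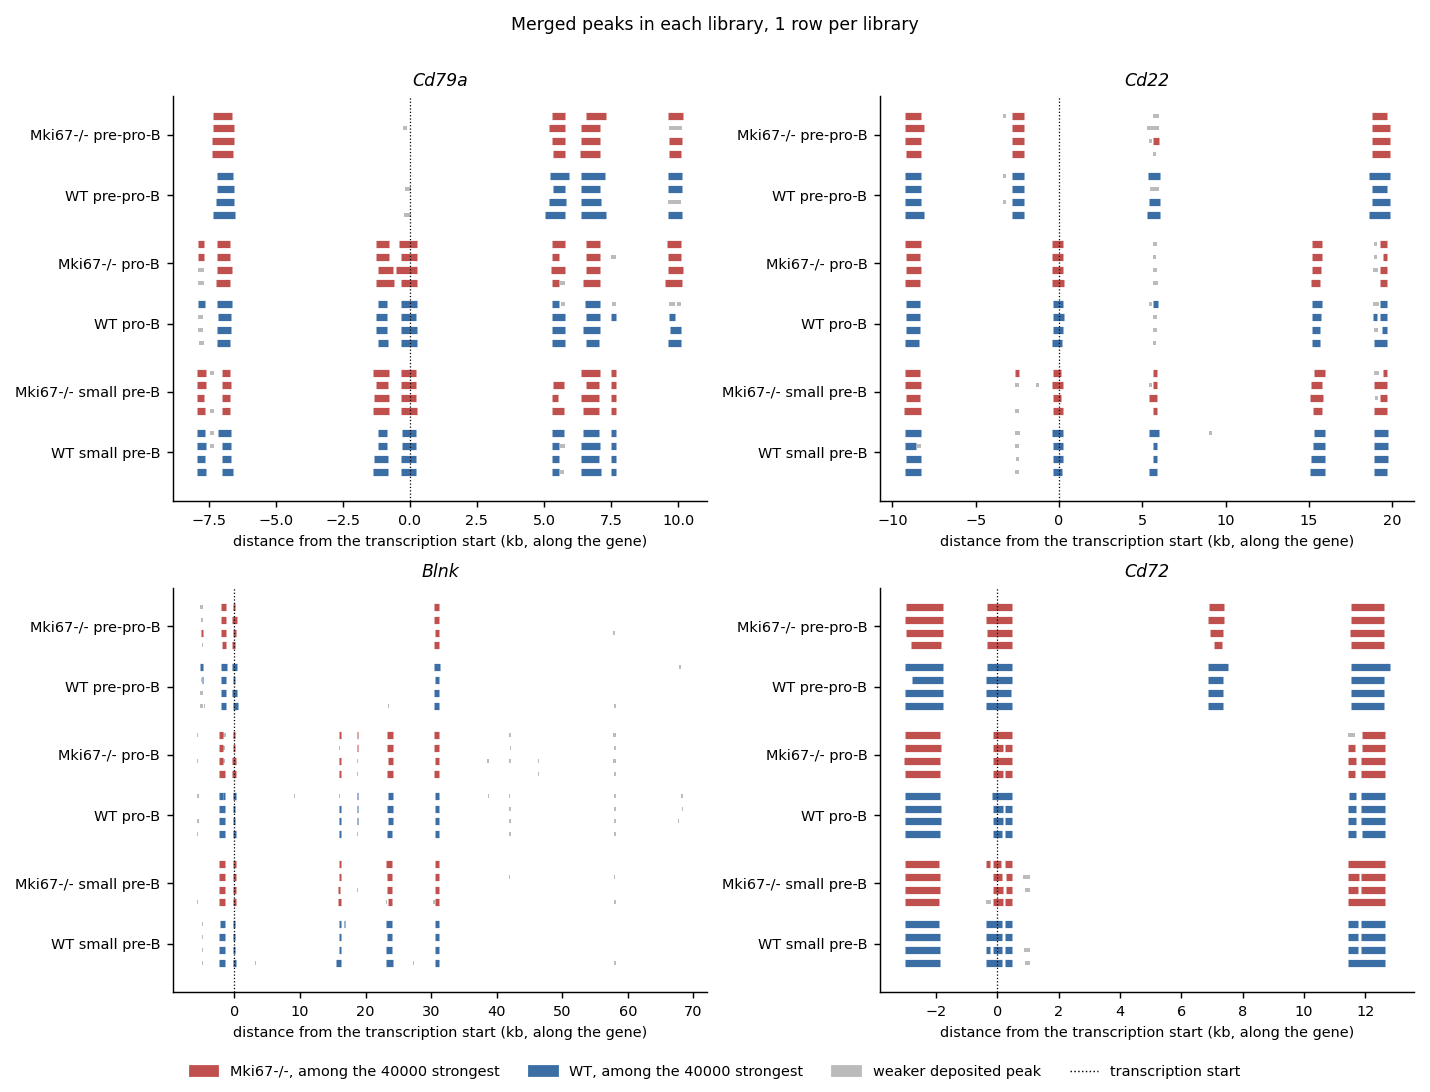
Merged peaks of every library along Cd79a, Cd22, Blnk and Cd72, by distance from the transcription start in kb along the gene, with 1 row per library and the Mki67-/- libraries above the WT libraries of each stage. Coloured bars are among the 40000 strongest of their library and grey bars are weaker deposited peaks; the starts of Cd79a and Cd22 are coloured in all 16 pro-B and small pre-B libraries and in 0 of 8 pre-pro-B libraries.

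The first step asks what changed at these genes as progenitors entered the pro-B stage. In pro-B cells, set against pre-pro-B cells, the receptor chains Cd79a and Cd79b, the adaptor Blnk, the kinase Btk and the inhibitory receptor Cd22 had more peaks. By the exact permutation test, with stage permuted within genotype and adjusted over all genes, 5 of the 9 genes were called higher and 0 lower. Of all 16218 genes tested, 24.8% were called higher and 21.1% lower. The median difference over the 9 genes was 0.75 peaks, against 0 over all genes tested. The exact permutation adjusted p was 0.00164 for Cd79a, Cd79b and Blnk, the smallest reached by any gene, 0.00436 for Btk and 0.0446 for Cd22 (8 pro-B against 8 pre-pro-B libraries). The deposited lists called 5 higher and 2 lower, where 21.2% of 17492 genes were called higher and 25.6% lower. There Btk missed the threshold (adjusted p = 0.0715), Blk was called higher (0.0198) and Syk and Lyn were called lower (0.00207 each, exact permutation). The length covered by peaks, which carries the wider pre-pro-B peaks, called 3 higher and 5 lower, where 11.9% of 16218 genes were called higher and 66.7% lower and the median over all genes was -441 bp. By that measure Cd22 fell by 502 bp (exact permutation adjusted p = 0.0233) although its number of peaks was higher.

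In small pre-B cells, set against pro-B cells, Blk and Cd22 had more peaks: 2 of 9 genes were called higher and 0 lower, where 11.4% of 15744 genes were called higher and 11.9% lower. The exact permutation adjusted p was 0.00467 for Blk and 0.0302 for Cd22 (8 libraries per stage). The median difference was 0.5 peaks over the 9 genes and 0 over all. In the full lists neither was called, 0 of 9 genes were higher and 1, Blnk, was lower (exact permutation adjusted p = 0.0247), where 6.11% of 17093 genes were called higher and 16.6% lower. By covered length 4 were called higher and 1 lower, where 13.4% of genes were called higher and 30.2% lower.

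Over both steps, small pre-B cells had more peaks than pre-pro-B cells at 7 of the 9 genes, all but Syk and Lyn, and fewer at 0, where 24.2% of 16051 genes were called higher and 21% lower. The median difference was 1.63 peaks over the 9 genes and 0 over all. On the deposited lists 5 were called higher (Cd79a, Blnk, Blk, Cd22 and Cd72) and 2 lower (Syk and Lyn), where 14.4% of 17320 genes were called higher and 30.0% lower. By covered length 3 were called higher (Cd79a, Cd79b and Blnk) and 3 lower (Syk, Lyn and Cd72), where 8.75% of genes were called higher and 73.4% lower.

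**Figure D2:**
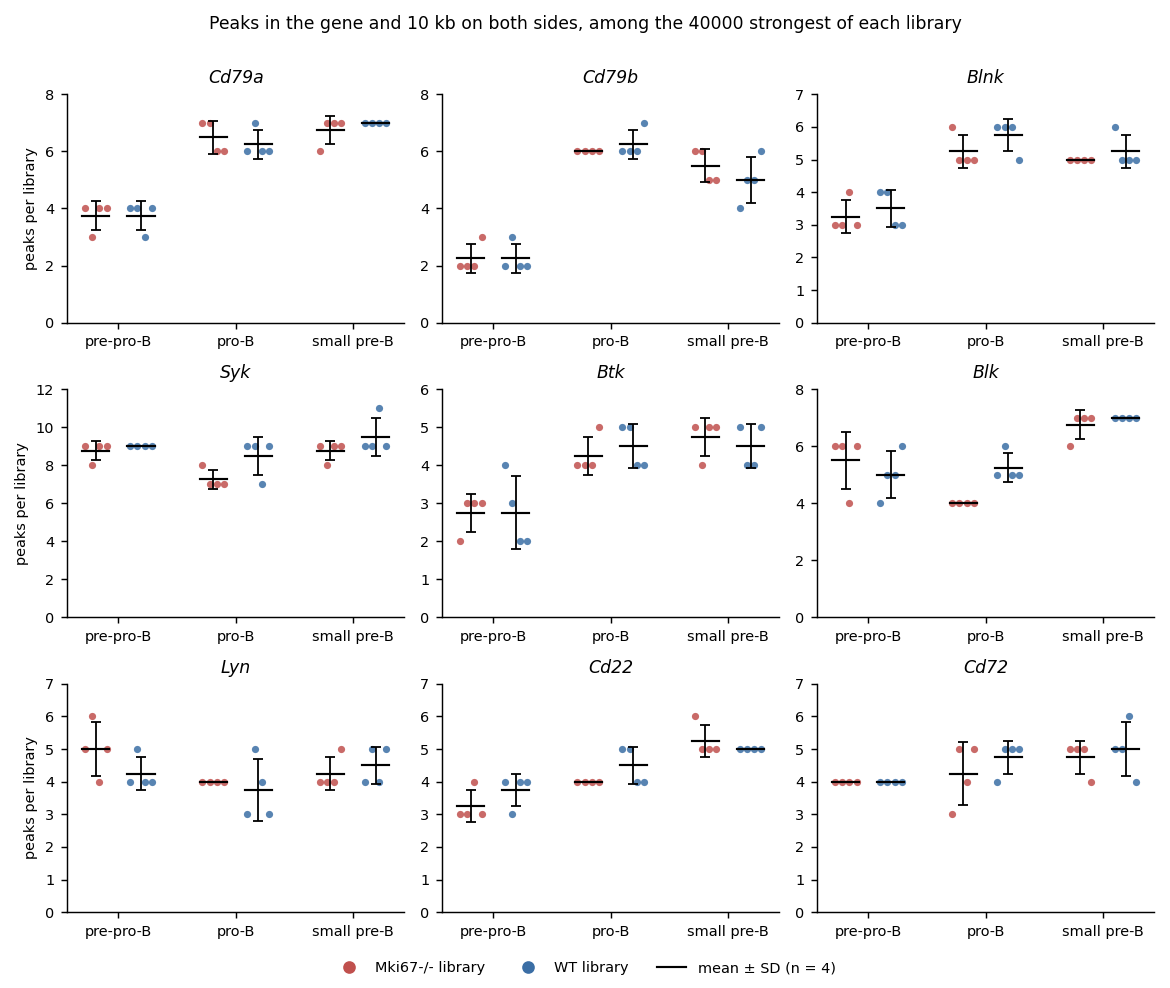
Number of peaks in each gene and 10 kb on both sides, among the 40000 strongest peaks of each library, by stage, with Mki67-/- libraries to the left of WT libraries. Points are libraries and black lines are the mean and SD of 4; Cd79a has 3 or 4 peaks in every pre-pro-B library and 6 or 7 in every later one.

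Cd79a (chr7:24897497-24901858), the Ig-alpha chain, had 4, 3, 4 and 4 in the Mki67-/- and 4, 4, 3 and 4 in the WT pre-pro-B libraries, in the order of replicates 1 to 4. It had 7, 7, 6 and 6 in the Mki67-/- and 6, 7, 6 and 6 in the WT pro-B libraries, and 6, 7, 7 and 7 in the Mki67-/- and 7, 7, 7 and 7 in the WT small pre-B libraries. Every pro-B and small pre-B library lay above every pre-pro-B library, and the genotypes overlapped at each stage. The mean was 6.38 ± 0.518 in pro-B and 3.75 ± 0.463 in pre-pro-B libraries (SD, n = 8 each), and 6.88 ± 0.354 in small pre-B libraries. Pro-B and small pre-B libraries overlapped and were not called apart (difference 0.5 peaks, exact permutation adjusted p = 0.33).

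The gain into pro-B cells lay at the gene start. The region over the start, chr7:24896981-24897767, and the next one, whose middle is 985 bp before the start, had a peak among the 40000 strongest in 0 of 8 pre-pro-B and in all 16 later libraries (exact permutation adjusted p = 0.00124 for pro-B over pre-pro-B, 8 libraries per stage). In the full deposited lists the start was weakly present in 1 of 4 Mki67-/- and 2 of 4 WT pre-pro-B libraries, and the difference was not called there (adjusted p = 0.0533, exact permutation). Once present it was among the strongest peaks of its library, at positions 786 to 1361 of 40000 in pro-B and 822 to 1321 in small pre-B libraries. Regions at the ends of Arhgef1 (middle 6836 bp after the start) and Rps19 (6986 bp before it), a pair of neighbouring genes in the window, had a peak in all 24 libraries. Inside Rps19, the region chr7:24889567-24889889, 7769 bp before the start, had a peak in 8 of 8 small pre-B, 3 of 8 pro-B and 0 of 8 pre-pro-B libraries (exact permutation adjusted p = 0.00144 for small pre-B over pre-pro-B). Inside Arhgef1, a region 7593 bp after the start had a peak in 8 of 8 small pre-B, 1 of 8 pro-B and 0 of 8 pre-pro-B libraries. A second one, 9848 bp after the start, had a peak in 0 of 8 small pre-B, 7 of 8 pro-B and 6 of 8 pre-pro-B libraries. Both regions inside Arhgef1 were called between small pre-B and pro-B cells (exact permutation adjusted p = 0.00951 each, 8 libraries per stage).

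Cd79b (chr11:106311341-106314562), the Ig-beta chain, had 2, 2, 2 and 3 in the Mki67-/- and 2, 3, 2 and 2 in the WT pre-pro-B libraries. It had 6, 6, 6 and 6 in the Mki67-/- and 6, 6, 6 and 7 in the WT pro-B libraries, and 6, 6, 5 and 5 in the Mki67-/- and 4, 5, 5 and 6 in the WT small pre-B libraries. All later libraries lay above all pre-pro-B libraries, and the mean was 6.13 ± 0.354 in pro-B against 2.25 ± 0.463 in pre-pro-B libraries (SD, n = 8 each), a difference of 3.88 peaks, the widest among the 9 genes. Small pre-B libraries had 5.25 ± 0.707 and were not called apart from pro-B libraries (exact permutation adjusted p = 0.0883), but were called lower without WT small pre-B replicate 4 or without replicate 1 or 2 of the Mki67-/- small pre-B libraries (0.0294, 0.0359 and 0.0355). Counting all deposited peaks, the difference between small pre-B and pre-pro-B libraries was 0.25 peaks and was not called (exact permutation adjusted p = 0.911).

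The table used here lists no start for Cd79b, so its regions are placed by the gene's ends. Beyond the lower end, the regions chr11:106308130-106308725 and chr11:106309917-106310460 had a peak in 0 of 8 pre-pro-B and all 16 later libraries, on the deposited lists as well. The region over the higher end, chr11:106313506-106314770, had a deposited peak in all 24 libraries but reached the 40000 strongest in 1 of 8 pre-pro-B and all 16 later ones. Its positions were 37803 in that pre-pro-B library, 13929 to 20351 in pro-B and 5519 to 8210 in small pre-B libraries. A region inside the neighbouring sodium channel gene Scn4a, 4410 bp past the higher end, was found in 1 of 8 pre-pro-B, 8 of 8 pro-B and 1 of 8 small pre-B libraries, and was called in both steps (exact permutation adjusted p = 0.00493 and 0.00951, 8 libraries per stage). All 8 pre-pro-B and all 8 pro-B libraries had a deposited peak there, and 3 of 8 small pre-B libraries, so the gain into pro-B was seen only among the 40000 strongest.

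Blnk (chr19:40928927-40994221), the adaptor that links Syk to its targets, had 3, 3, 4 and 3 in the Mki67-/- and 4, 4, 3 and 3 in the WT pre-pro-B libraries. It had 6, 5, 5 and 5 in the Mki67-/- and 6, 6, 6 and 5 in the WT pro-B libraries, and 5, 5, 5 and 5 in the Mki67-/- and 6, 5, 5 and 5 in the WT small pre-B libraries. Again no later library overlapped a pre-pro-B library, with means of 5.5 ± 0.535 in pro-B and 3.38 ± 0.518 in pre-pro-B libraries (SD, n = 8 each). Unlike at Cd79a, the start was open throughout: it had a peak in all 24 libraries, at positions 14513 to 23855 in pre-pro-B, 8624 to 11752 in pro-B and 5649 to 9918 in small pre-B libraries. The gain lay inside the gene. The region chr19:40970040-40971084, 23659 bp after the start, had a peak in 0 of 8 pre-pro-B and all 16 later libraries. A further one, 15908 bp after the start, had a peak in 0 of 8 pre-pro-B, 6 of 8 pro-B and 8 of 8 small pre-B libraries (exact permutation adjusted p = 0.0212 for pro-B over pre-pro-B, 8 libraries per stage).

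Btk (chrX:134542334-134583628), the kinase that activates phospholipase C-gamma downstream of Blnk, had 2, 3, 3 and 3 in the Mki67-/- and 4, 3, 2 and 2 in the WT pre-pro-B libraries. It had 4, 4, 4 and 5 in the Mki67-/- and 5, 5, 4 and 4 in the WT pro-B libraries, and 5, 4, 5 and 5 in the Mki67-/- and 5, 4, 4 and 5 in the WT small pre-B libraries. The stages met at 4 peaks, which 1 WT pre-pro-B library reached, and the means were 4.38 ± 0.518 in pro-B and 2.75 ± 0.707 in pre-pro-B libraries (SD, n = 8 each). A pair of regions in the gene body was gained, chrX:134566551-134567150 and chrX:134564373-134564693, each among the 40000 strongest in 0 of 8 pre-pro-B and all 16 later libraries. The first of them was already on the deposited lists of 2 of 4 Mki67-/- and 4 of 4 WT pre-pro-B libraries, where it was not called (exact permutation adjusted p = 0.504). The start itself had no peak among the 40000 strongest in any library. Its weak deposited peak was found in 3 of 4 Mki67-/- and 4 of 4 WT pre-pro-B libraries, in 0 of 8 pro-B libraries, and in 1 of 4 Mki67-/- and 0 of 4 WT small pre-B libraries. A separate region, 294 bp before the start, had a weak deposited peak in 3 of 4 Mki67-/- and 1 of 4 WT pro-B libraries. No library of the other stages had one there. Regions at an end of the neighbours Timm8a1 and Rpl36a had a peak in all 24 libraries and are counted in the window. By covered length Btk differed by 1.5 bp between pro-B and pre-pro-B libraries (exact permutation adjusted p = 0.995), and among the 20000 strongest peaks the difference was 0 (adjusted p = 1).

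Syk (chr13:52582610-52648792), the kinase that docks on the receptor chains, had 9, 8, 9 and 9 in the Mki67-/- and 9, 9, 9 and 9 in the WT pre-pro-B libraries. It had 8, 7, 7 and 7 in the Mki67-/- and 9, 9, 7 and 9 in the WT pro-B libraries, and 9, 8, 9 and 9 in the Mki67-/- and 9, 9, 11 and 9 in the WT small pre-B libraries. The pre-pro-B libraries were already as high as the small pre-B libraries, and the pro-B libraries were lower in part. The difference of -1 peak between pro-B and pre-pro-B libraries was not called (exact permutation adjusted p = 0.0608). It was called without WT pro-B replicate 1, 2 or 4 (0.0273, 0.0273 and 0.0274), by covered length (-1619 bp, 0.000862) and on the deposited lists, where it was -5.13 peaks. Its region chr13:52604872-52605634, inside the gene and 8371 bp after the nearest listed start, had a peak in 8 of 8 pre-pro-B, 0 of 8 pro-B and 6 of 8 small pre-B libraries. Those 6 were 2 of 4 Mki67-/- and 4 of 4 WT libraries. Both changes were called (exact permutation adjusted p = 0.00124 and 0.0231, 8 libraries per stage), and on the deposited lists it was in all 16 libraries of the outer stages and in 0 of 8 pro-B libraries. A region 61714 bp after the nearest listed start, beyond the gene, had a peak in 8 of 8 pre-pro-B, 2 of 8 pro-B and 6 of 8 small pre-B libraries (exact permutation adjusted p = 0.0136 for pro-B over pre-pro-B), although all 24 libraries had a deposited peak there. Its peaks were in 0 of 4 Mki67-/- and 2 of 4 WT pro-B libraries, and in 2 of 4 Mki67-/- and 4 of 4 WT small pre-B libraries.

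Of the starts listed for Syk, the first had a peak in all 24 libraries, at positions 12204 to 17763 in pre-pro-B, 9767 to 14585 in pro-B and 5088 to 7861 in small pre-B libraries. The second had one in 8 of 8 pre-pro-B, 6 of 8 pro-B and 8 of 8 small pre-B libraries, at 12676 to 20736, 29729 to 36739 and 24008 to 35609. The region 10826 bp before the first start, chr13:52571749-52573474, had a peak in all 24 libraries and stood at 6071 to 8878 in pre-pro-B, 1264 to 3045 in pro-B and 251 to 805 in small pre-B libraries. These positions did not overlap between stages and were not tested. Here and for the positions given below, the share of all regions that separate the stages in this way was not counted.

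**Figure D3:**
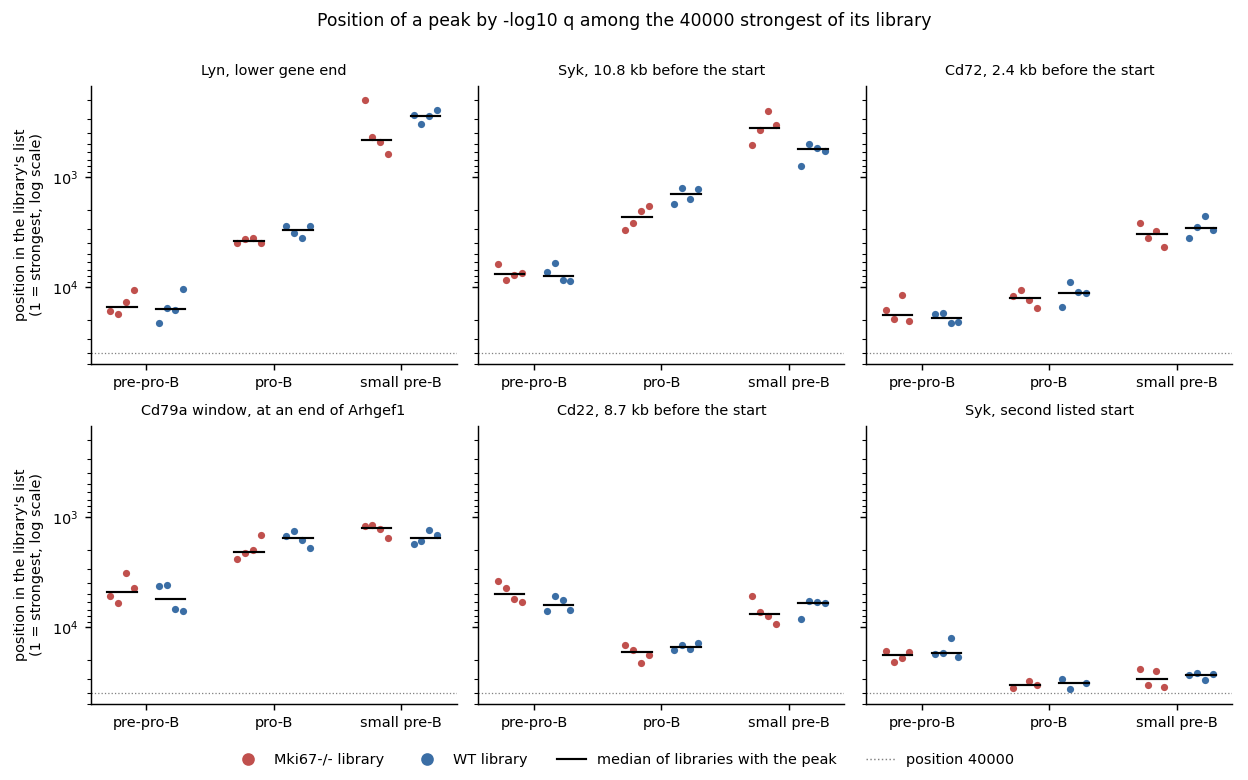
Position of 6 regions among the 40000 strongest peaks of each library, where 1 is the highest -log10 q, on a log axis with the strongest at the top. Points are libraries, Mki67-/- left of WT, and lines are medians of the libraries that have the peak; at the lower end of Lyn the position is 10515 to 21519 in pre-pro-B, 2809 to 3970 in pro-B and 201 to 624 in small pre-B libraries.

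Lyn (chr4:3678068-3791612), a Src-family kinase that both starts and restrains the signal, had 5, 6, 4 and 5 in the Mki67-/- and 4, 5, 4 and 4 in the WT pre-pro-B libraries. It had 4, 4, 4 and 4 in the Mki67-/- and 3, 5, 4 and 3 in the WT pro-B libraries, and 4, 4, 4 and 5 in the Mki67-/- and 4, 5, 4 and 5 in the WT small pre-B libraries. All groups overlapped, and no difference between stages was called (exact permutation adjusted p = 0.167, 0.527 and 0.951 for pro-B over pre-pro-B, small pre-B over pro-B and small pre-B over pre-pro-B). Without Mki67-/- pre-pro-B replicate 3 or WT pro-B replicate 2, the first of these was called lower (0.0403 and 0.0196). Counting all deposited peaks, Lyn had 13 ± 1.41 peaks in Mki67-/- and 14 ± 0.816 in WT pre-pro-B libraries (SD, n = 4 each), and was called lower in pro-B (-6.25 peaks, exact permutation adjusted p = 0.00207).

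The stages also stood apart in the position of a peak at Lyn. The region over its lower end, chr4:3677715-3679189, was in all 24 libraries, at positions 10515 to 21519 in pre-pro-B, 2809 to 3970 in pro-B and 201 to 624 in small pre-B libraries. The stages did not overlap, and the median position of small pre-B libraries, 306.5, was the nearest to the top of the list among the regions of the 9 genes whose positions were taken. Inside the gene, the region 52374 bp past the lower end had a peak in 5 of 8 pre-pro-B and 0 of 16 later libraries. Those 5 were 4 of 4 Mki67-/- and 1 of 4 WT libraries. Among the 40000 strongest it was called lower in pro-B (exact permutation adjusted p = 0.0285), but not without WT pre-pro-B replicate 2 (0.0524). On the deposited lists it was in 4 of 4 pre-pro-B libraries of both genotypes and 0 of 8 pro-B libraries. There it was also in 0 of 4 Mki67-/- and 1 of 4 WT small pre-B libraries. The region 34435 bp past the lower end was in 7 of 8 pre-pro-B, 6 of 8 pro-B and 0 of 8 small pre-B libraries. In the other direction, the region 11066 bp before the higher end was in 0 of 8 pre-pro-B, 1 of 8 pro-B and 8 of 8 small pre-B libraries. The last of these differences was called between small pre-B and pro-B cells (exact permutation adjusted p = 0.00951), as was that at 34435 bp (0.0231). Among all deposited peaks, the region 11066 bp before the higher end was already found in 3 of 4 Mki67-/- and 4 of 4 WT pre-pro-B libraries and in all 16 later ones, so that the stages differ there in how many peaks reached the 40000 strongest.

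Blk (chr14:63372837-63417187), a Src-family kinase largely restricted to the B lineage, had 6, 6, 4 and 6 in the Mki67-/- and 4, 5, 5 and 6 in the WT pre-pro-B libraries. It had 4, 4, 4 and 4 in the Mki67-/- and 5, 6, 5 and 5 in the WT pro-B libraries, and 6, 7, 7 and 7 in the Mki67-/- and 7, 7, 7 and 7 in the WT small pre-B libraries. The small pre-B libraries were the highest, and 1 WT pro-B library at 6 met the lowest of them. Their mean was 6.88 ± 0.354, against 4.63 ± 0.744 in pro-B libraries (SD, n = 8 each), a difference of 2.25 peaks. The deposited lists did not show this: the difference was -0.375 peaks and was not called (exact permutation adjusted p = 0.975). Between pro-B and pre-pro-B the lists also differed in sign, at -0.625 peaks among the 40000 strongest (0.389) and 2.13 on the deposited lists (0.0198).

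The regions of Blk changed in several directions. The region chr14:63413327-63414123, inside the gene and 3462 bp before its higher end, had a peak in 8 of 8 pre-pro-B and 0 of 16 later libraries, while the one 2472 bp past that end, chr14:63419468-63419850, had one in 0 of 8 pre-pro-B and all 16 later libraries. Both were called (exact permutation adjusted p = 0.00124 each, 8 libraries per stage). Among weaker deposited peaks, the lost region was still weakly present in all 8 pro-B libraries and in 1 of 4 Mki67-/- and 3 of 4 WT small pre-B libraries. The region 5473 bp before the higher end was in 1 of 8 pre-pro-B, 0 of 8 pro-B and 8 of 8 small pre-B libraries (0.00309 for small pre-B over pro-B), and on the deposited lists, where it was in 7 of 8 pro-B libraries, it was not called (adjusted p = 1, exact permutation). The region 1501 bp past that end was in 8 of 8 pre-pro-B, 0 of 4 Mki67-/- and 3 of 4 WT pro-B, and 8 of 8 small pre-B libraries, a difference between small pre-B and pro-B cells (0.0432) that was not called without WT pro-B replicate 1 (0.0722). All 24 libraries had a deposited peak there. The region over the higher end itself reached the 40000 strongest in 4 of 8 pre-pro-B and all 16 later libraries, and had a deposited peak in all 24.

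Cd22 (chr7:30865404-30880342), an inhibitory receptor of B cells that binds sialic acid, had 3, 3, 4 and 3 in the Mki67-/- and 4, 3, 4 and 4 in the WT pre-pro-B libraries. It had 4, 4, 4 and 4 in the Mki67-/- and 5, 5, 4 and 4 in the WT pro-B libraries, and 6, 5, 5 and 5 in the Mki67-/- and 5, 5, 5 and 5 in the WT small pre-B libraries. Pre-pro-B and pro-B libraries met at 4 peaks, and all small pre-B libraries had 5 or 6. The means were 4.25 ± 0.463 in pro-B and 3.5 ± 0.535 in pre-pro-B libraries (SD, n = 8 each), and 5.13 ± 0.354 in small pre-B libraries. The call for pro-B over pre-pro-B was lost without WT pre-pro-B replicate 2, WT pro-B replicate 1 or WT pro-B replicate 2 (exact permutation adjusted p = 0.0592, 0.0777 and 0.0776).

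Below this small change in number lay larger changes in place. The region over the start, chr7:30878747-30879443, and the region 15523 bp after the start, beyond the gene, had a peak in 0 of 8 pre-pro-B and all 16 later libraries, on the deposited lists too. The region chr7:30881125-30881864, 2466 bp before the start, had one in 8 of 8 pre-pro-B, 0 of 8 pro-B and 1 of 8 small pre-B libraries. All 3 were called in pro-B over pre-pro-B (exact permutation adjusted p = 0.00124, 8 libraries per stage). Among weaker deposited peaks, it was weakly present again in 3 of 4 Mki67-/- and 4 of 4 WT small pre-B libraries. The region 5683 bp after the start was in 1 of 4 Mki67-/- and 3 of 4 WT pre-pro-B libraries, in 1 of 8 pro-B and 8 of 8 small pre-B libraries (0.00951 for small pre-B over pro-B). That region had a deposited peak in all 24 libraries, so the call concerns which peaks reached the 40000 strongest. The start was at positions 4341 to 6065 in pro-B and 8682 to 12451 in small pre-B libraries. The region 8693 bp before the start, found in all 24 libraries, stood at 3837 to 7222 in pre-pro-B, 14030 to 21413 in pro-B and 5214 to 9383 in small pre-B libraries, so that the pro-B libraries lay apart from both other stages.

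Cd72 (chr4:43447724-43455102), an inhibitory C-type lectin receptor of B cells, had 4, 4, 4 and 4 in the Mki67-/- and 4, 4, 4 and 4 in the WT pre-pro-B libraries. It had 3, 5, 4 and 5 in the Mki67-/- and 4, 5, 5 and 5 in the WT pro-B libraries, and 5, 5, 5 and 4 in the Mki67-/- and 5, 5, 6 and 4 in the WT small pre-B libraries. All 8 pre-pro-B libraries had the same number and later libraries had 3 to 6. Pro-B over pre-pro-B was not called (0.5 peaks, exact permutation adjusted p = 0.323) except without Mki67-/- pro-B replicate 1 (0.0232), and small pre-B over pre-pro-B was called at 0.875 peaks (0.0245). The second call was lost when 3 libraries were left out together, the fourth Mki67-/- pre-pro-B one and the first small pre-B one of either genotype (0.0583). The number of peaks went with fewer regions: 4 joined regions had a peak in every pre-pro-B library and 3 in every later library, so the added peaks lay inside regions that held 1 peak each in pre-pro-B libraries. By covered length Cd72 fell by 865 bp in pro-B and by 677 bp in small pre-B cells against pre-pro-B cells (exact permutation adjusted p = 0.000862 and 0.000782). The lost region, chr4:43447093-43447753, lies at an end of the neighbouring kinase gene Tesk1, 7203 bp after the Cd72 start. It also overlaps the end of Cd72 opposite the start. It had a peak in 8 of 8 pre-pro-B and 0 of 16 later libraries, on the deposited lists too. The start had a peak in all 24 libraries, at positions 9008 to 16726 in pre-pro-B, 8476 to 12387 in pro-B and 6978 to 8564 in small pre-B libraries. The region 2398 bp before the start was also in all 24, at 11826 to 21495, 8991 to 15442 and 2272 to 4367, where the small pre-B libraries did not overlap the others.

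Over all windows, the peaks of the 24 libraries joined to 103 regions. Of these, 22 had a peak among the 40000 strongest in all 24 libraries and 38 in none, against 16778 and 45092 of all 117992 regions. In pro-B over pre-pro-B cells, 13 were called higher and 8 lower of 38 tested, where 23.8% of all 48311 regions tested were higher and 26.3% lower. In small pre-B over pro-B cells, 6 were called higher and 3 lower of 23 tested, where 14.3% of 33949 were higher and 18.7% lower. In small pre-B over pre-pro-B cells, 16 were called higher and 6 lower of 39 tested, where 20.2% of 46896 were higher and 25.7% lower. The median difference in the share of libraries was 0.125, 0.25 and 0.25 over the regions of the 9 genes in these comparisons, against -0.125 over all regions in each. On the deposited lists no median over the regions of the 9 genes was above 0. These medians were 0, -0.125 and -0.125, against -0.25, -0.125 and -0.375 over all regions. There 16 were called higher and 15 lower of 60 tested in pro-B over pre-pro-B cells, where 20.4% of 81712 regions were higher and 30.2% lower. In small pre-B over pro-B cells the deposited lists called 4 higher and 5 lower of 41, where 9.45% of 55616 were higher and 20.4% lower. In small pre-B over pre-pro-B cells they called 13 higher and 14 lower of 62, where 13.9% of 80594 were higher and 32.7% lower.

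**Figure D4:**
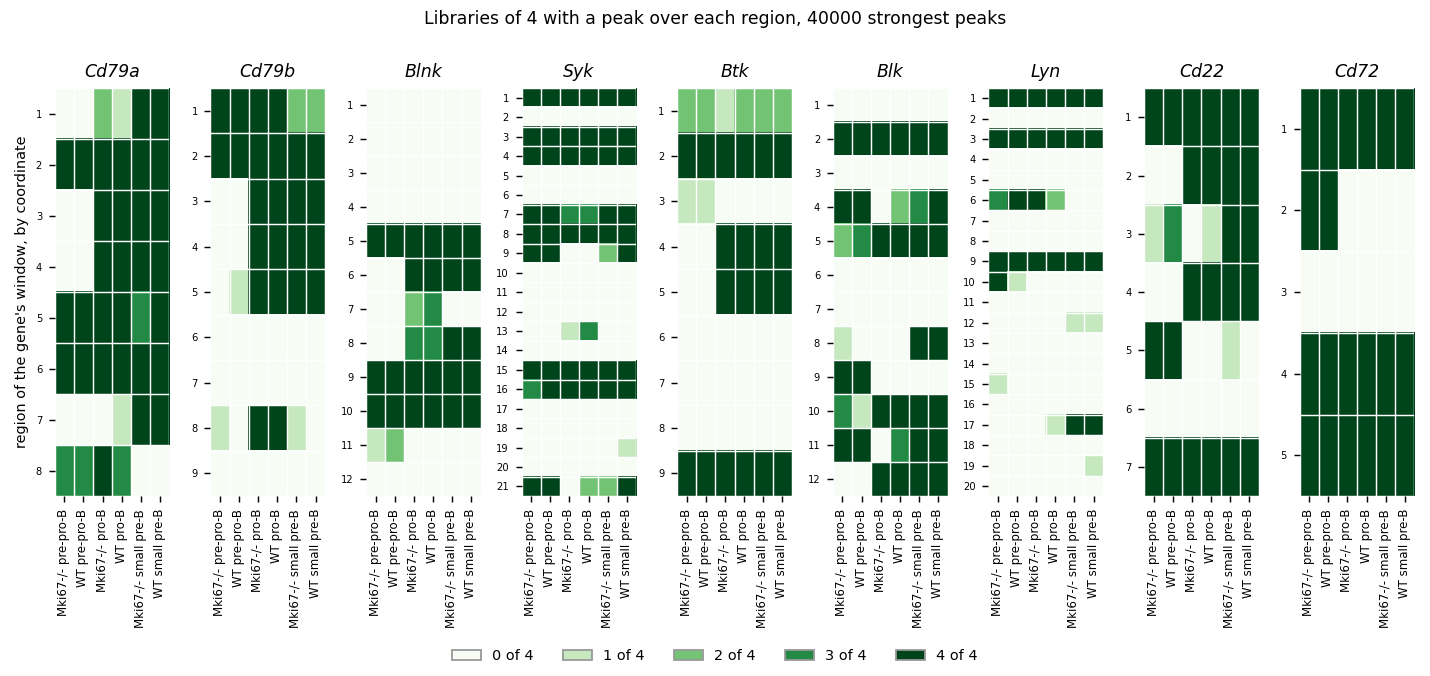
Number of libraries of 4 with a peak among the 40000 strongest over each of the 103 regions, from 0 (white) to 4 (dark), by gene. Rows are the regions of a gene's window by coordinate, and columns the 6 groups by stage with Mki67-/- left of WT; 22 regions are dark in all 6 columns.

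The other genes of the pathway, 32 in all, moved in both directions. In pro-B over pre-pro-B cells 10 were called higher and 10 lower, where 24.8% of all genes were higher and 21.1% lower, with a median difference of -0.0625 peaks over the 32. The deposited lists called 5 higher and 11 lower. Among the 40000 strongest, those higher included the Src-family kinase Fyn (6.25 peaks), phospholipase Plcg2 (3.75) and the adaptor Sh3bp2 (3.63). Lower were the adaptor Grb2 (-6.75 peaks), the ubiquitin ligase Cblb (-3.75), the phosphatase Ptprc, known as CD45 (-2.88), and Malt1 of the NF-kappaB branch (-1.25). Each of these genes had an exact permutation adjusted p of 0.00164. In small pre-B over pro-B cells 10 were called higher and 3 lower, where 11.4% of all genes were higher and 11.9% lower, but the deposited lists called 4 higher and 5 lower. Among the 40000 strongest, those higher included Cblb (3.13 peaks), the NF-kappaB gene Rel (2.25) and the Ras activator Rasgrp3 (2.13), with an exact permutation adjusted p of 0.00467 each. Lower there were Fyn (-4.63), Nfatc1 (-1.75) and Sh3bp2 (-1.5), at adjusted p-values of 0.00831, 0.0272 and 0.0231. In small pre-B over pre-pro-B cells, where 24.2% of all genes were higher and 21% lower, 13 were called higher, among them Pik3ap1 (4.88), Cd5 (3.13) and Rasgrp3 (2.63), and 8 lower, among them Grb2 (-5.63), Lck (-1.38) and Prkcb (-2.88). The deposited lists called 6 higher and 11 lower in that comparison. By covered length, as for all genes, most of the list was lower: 21 of 32 in pro-B and 23 of 32 in small pre-B over pre-pro-B cells.

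The 9 genes together held 38 to 40 peaks in Mki67-/- and 36 to 40 in WT pre-pro-B libraries, 44 to 46 and 47 to 54 in pro-B libraries, and 51 to 52 and 52 to 54 in small pre-B libraries, with Mki67-/- first at each stage. This sum counts only the strongest peaks of each library, not the deposited lists on which genotypes were compared. In it the genotypes did not overlap at the pro-B stage and met at both others, which was not tested. How often other sets of genes separate the genotypes in this way was not counted. On the deposited lists the pro-B differences of Mki67-/- over WT went both ways. They were -1.5 peaks for Syk, -0.75 for Blk, -0.5 for Cd79a and Blnk, and -0.25 for Cd22 and Cd72. For Cd79b, Lyn and Btk they were 0.25, 1 and 1.25. The other genes whose peak number followed the sum of the 9 genes most closely over the 24 libraries were Txnrd2 (Pearson r = 0.975), Sptbn4 (0.971), Rarres1 (0.962), Gxylt2 (0.960) and Pde8a (0.960). All 5 had their lowest mean in pre-pro-B and their highest in small pre-B libraries, for example 3.13, 7.75 and 10.5 peaks for Sptbn4. The libraries of a stage share that stage's peaks, so these values describe a shared order of the stages.

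The other question is what differed at these genes between mice without and with Ki-67. On the deposited lists, with genotype permuted within stage over 12 Mki67-/- and 12 WT libraries, 0 of the 9 genes were called higher or lower, and 0 of all 17598 genes (0% in each direction). At an unadjusted permutation p under 0.05 stood 1 of the 9 genes, Blk, and 5.07% of all genes. Of the other pathway genes 0 of 32 were called and 3 had an unadjusted p under 0.05.

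Blk had 6, 7, 6 and 6 in the Mki67-/- and 8, 6, 8 and 7 in the WT pre-pro-B libraries on the deposited lists. It had 8, 6, 11 and 9 in the Mki67-/- and 9, 8, 10 and 10 in the WT pro-B libraries, and 7, 8, 7 and 9 in the Mki67-/- and 10, 9, 9 and 9 in the WT small pre-B libraries. The Mki67-/- libraries lay lower on average at each stage, but the genotypes overlapped at all of them. The means were 7.5 ± 1.57 in Mki67-/- and 8.58 ± 1.24 in WT libraries (SD over stages, n = 12 each; permutation p = 0.0362, adjusted p = 0.913). Counted over the strongest peaks alone, the difference was -0.333 (permutation p = 0.384). There the pro-B libraries did not overlap, at 4 in each Mki67-/- and 5 or 6 in each WT library (exact permutation p = 0.0286, the smallest that 4 against 4 allow, adjusted p = 1). In those lists 0, 1 and 0 of the 9 genes had an unadjusted p under 0.05 at the pre-pro-B, the pro-B and the small pre-B stage, where 0.586%, 1.34% and 2.03% of all genes had one.

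Syk had 14, 16, 19 and 15 in the Mki67-/- and 20, 15, 19 and 17 in the WT pre-pro-B libraries on the deposited lists. It had 12, 11, 11 and 10 in the Mki67-/- and 13, 12, 13 and 12 in the WT pro-B libraries, and 13, 14, 15 and 11 in the Mki67-/- and 15, 13, 13 and 14 in the WT small pre-B libraries. In pro-B cells the genotypes met only at 12 peaks, and at the outer stages they overlapped widely. The mean difference across stages was -1.25 peaks (permutation p = 0.0742, adjusted p = 1), and among the 40000 strongest it was -0.75 (p = 0.0276, adjusted p = 0.977).

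Lyn had 13, 14, 14 and 11 in the Mki67-/- and 14, 14, 13 and 15 in the WT pre-pro-B libraries on these lists. It had 8, 6, 8 and 9 in the Mki67-/- and 7, 7, 7 and 6 in the WT pro-B libraries, and 7, 8, 7 and 7 in the Mki67-/- and 13, 7, 7 and 12 in the WT small pre-B libraries. WT small pre-B replicates 1 and 4, at 13 and 12, stood above the other 6 libraries of that stage, which had 7 or 8. The difference across stages was -0.833 peaks (permutation p = 0.299, adjusted p = 1). Those of the remaining genes lay between -0.5 peaks for Cd79a and Blnk and 0.25 for Cd79b and Btk, each with an adjusted p of 1.

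Within single stages, 4 against 4 libraries give an exact permutation p of 0.0286 at the smallest. Unless most genes reach that p, none can be called after adjustment over all genes. The 0 of 9 genes and 0% of all genes called within stages therefore decide nothing, and these values are a description. On the deposited lists 0 of 9 had an unadjusted exact permutation p under 0.05 in any stage, where 0.702%, 1.30% and 1.33% of all genes did at the pre-pro-B, the pro-B and the small pre-B stage. A difference between stages in the effect of genotype was called for 0 of 9 genes in any pair of stages, and for 0% of all genes. Btk had the lowest p of these, with an effect of 1.25 peaks in pro-B and -1.25 in pre-pro-B cells (permutation p = 0.0343, adjusted p = 1). Its deposited peaks numbered 7, 5, 7 and 5 in the Mki67-/- and 8, 6, 8 and 7 in the WT pre-pro-B libraries. They numbered 9, 8, 10 and 8 in the Mki67-/- and 8, 7, 7 and 8 in the WT pro-B libraries, and 7, 7, 8 and 8 in the Mki67-/- and 7, 6, 7 and 7 in the WT small pre-B libraries. The genotypes overlapped at each stage.

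By region, 71 of the 103 were tested on the deposited lists and 0 were called higher or lower by genotype, as were 0% of all 91188 regions tested. An unadjusted permutation p under 0.05 was found for 1 of the 71 and for 2.17% of all regions. That region, 4970 bp before the start of Blnk (chr19:40998938-40999445), was on the deposited lists of 0 of 4 Mki67-/- and 4 of 4 WT small pre-B libraries. In pre-pro-B cells it was in 4 of 4 libraries of both genotypes and in pro-B cells in 0 of 4 of both (permutation p = 0.0286, adjusted p = 1). It reached the 40000 strongest in 1 Mki67-/- and 2 WT pre-pro-B libraries only. The regions over the starts of Cd79a, Cd22, Blnk and Cd72 did not differ between genotypes in any later library, being present in all 8 Mki67-/- and all 8 WT ones.

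**Figure D5:**
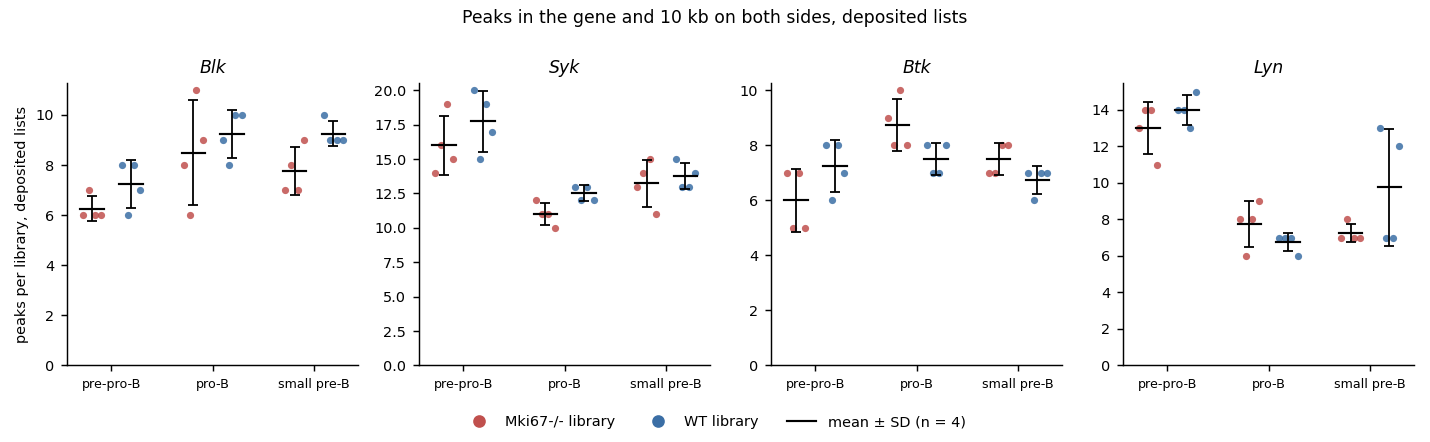
Number of deposited peaks in Blk, Syk, Btk and Lyn and 10 kb on both sides, by stage, with Mki67-/- libraries to the left of WT libraries. Points are libraries and black lines are the mean and SD of 4; the genotypes overlap in each panel at each stage, and WT small pre-B replicates 1 and 4 of Lyn stand at 13 and 12.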

How the data were processed

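ATAC-seq peak lists of 24 libraries, 1 per library, were used as deposited. Per the submitters' processing notes, the authors used Trimmomatic, MACS2, deepTools, DiffBind and DESeq2 on mm10; versions are not given in the sources used here. In each deposited list the authors give a score (10 times the -log10 q), a fold enrichment over local background, and the -log10 p and -log10 q of each summit. The lowest -log10 q was 2, a q-value of 0.01. Scores and fold values were not analysed further.

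Overlapping or touching entries were joined to merged peaks on chromosomes 1 to 19 and X, ranked by their highest -log10 q, and counted where they overlapped a gene body with 10 kb on both sides by at least 1 bp. Gene limits came from RefSeq GRCm38.p6, which gives no exons here. Genes were tested where at least 4 of the compared libraries had a peak. Regions were the joined peaks of all 24 libraries, kept where at least 2 libraries of a group had a peak. A region's distance is that of its middle, and a neighbour's end is named within 1 kb.

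Stages were compared by an exact two-sided permutation test within genotype (8 against 8 libraries, smallest p 0.000408), genotypes by the same test within stage (12 against 12, smallest p 5.83e-06; 4 against 4 within 1 stage, smallest p 0.0286), with Benjamini-Hochberg adjustment over all genes or regions and a threshold of 0.05. The stage comparisons share libraries with each other. The permutation tests were also run on simulated data. The 9 genes, the 32 other pathway genes, the marker lists, the 3 libraries left out together and the tests were chosen with earlier results of these data known. All 9 genes are named in every comparison. Of other pathway genes, up to 4 per comparison and direction past the test are named, by p and then size. Some genes that this rule names are not reported here. Of regions, those at gene starts and up to 2 per gene and comparison past the test are named. Other regions, among them those followed by position only, were chosen after their values were seen. The 5 most alike genes have the highest Pearson r with the summed peaks of the 9. Same-numbered replicates did not deviate together across stages (r from -0.0411 to 0.0319 over 24 pairs) or genotypes (-0.16 to 0.0937 over 12 pairs). Chromosome Y was outside this check, and its number of peaks did follow replicate number in the pre-pro-B and pro-B groups. In small pre-B cells only Mki67-/- replicate 1 was low in it, so comparisons with that stage are uneven in this feature. The stage tests were not stratified by it. Analyses used Python 3.11.15, numpy 2.4.6, pandas 2.3.3, scipy 1.17.1 and matplotlib 3.10.9.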

Additional observations from a re-analysis of the deposited data

Results flagged for a closer look

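In 44 of 120 groups of 4 libraries, over the 9 genes and their sum on both kinds of list, 1 library differed while the other 3 had the same number, so that its gap to the others divided by the group's range was 1, above Dixon's critical value for 4 samples. Chance flags about 1 in 20 groups of continuous values, and these are whole numbers with few levels. The gap was 1 peak in 38 of the 44 groups, for example 3 peaks of Cd79a in WT pre-pro-B replicate 3 against 4 in the others. It was 2 peaks in the other 6. Among the 40000 strongest peaks these were Syk in WT pro-B replicate 3 (7 against 9) and WT small pre-B replicate 3 (11 against 9), Blk in Mki67-/- pre-pro-B replicate 3 (4 against 6), and the sum of the 9 genes in Mki67-/- pre-pro-B replicate 4 (40 against 38) and Mki67-/- pro-B replicate 3 (44 against 46). On the deposited lists it was Cd72 in WT small pre-B replicate 3 (7 against 5).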

How the results depend on the processing

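Counts of the 9 genes and of the 32 other pathway genes called, and differences in peaks, moved as follows. For pro-B over pre-pro-B, the deposited lists called 2 of the 9 lower and 5 others higher, with Blk at 2.13. The 20000 strongest peaks called 3 of the 9 higher, with Blk at 0.75, where 2754 of 14310 genes were called higher and 2636 lower. Covered length called 3 higher and 5 lower of the 9 and 4 and 21 of the others, with Cd22 at -502 and Cd72 at -865 bp, and the gene body alone put Cd72 at -0.125. For small pre-B over pro-B, the deposited lists called 0 higher and 1 lower of the 9 and 4 and 5 of the others, with Cd79a at -0.125, Btk at -1 and Blk at -0.375. The 20000 strongest put Cd79b at 0.125. Covered length called 4 higher and 1 lower of the 9 and 7 others lower, with Cd79a at -264 and Btk at -129 bp. The gene body alone called 5 others lower, where 1369 of 14059 genes were called lower, and put Cd79b at 0.5. For small pre-B over pre-pro-B, the deposited lists called 2 of the 9 lower and 6 others higher, with Syk at -3.38; the 20000 strongest put Syk at -0.625 and Lyn at 0.625. Covered length called 3 and 3 of the 9 and 4 and 23 of the others, with Syk at -774, Btk at -127 and Cd72 at -677 bp. The causes were not tested.

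By the check made, which left out chromosome Y, same-numbered replicates did not deviate together. The number of chromosome Y peaks did follow replicate number in the pre-pro-B and pro-B groups. With a replicate block, whose smallest p is 0.00781, small pre-B over pro-B called 0 of all 15744 genes. It thus called 0 of the 9, 0 others higher and 0 lower, and 0 and 0 regions. Small pre-B over pre-pro-B called 3 others lower, where 3069 of 16051 genes were called higher and 2670 lower. Pro-B over pre-pro-B called 4 regions lower. The share of all regions called with the block was not counted. Of the genes, 3285 of 16218 were called higher and 2820 lower in that comparison.

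For Mki67-/- over WT no alternative called any of the 9 genes, and these differences changed sign: Lyn at 0.25 among the 40000 strongest; Cd79b at -0.167, Blnk at 0.25, Syk at 0.0833 and Btk at -0.0833 among the 20000 strongest; Btk at -0.333 with -log10 q of at least 10; Cd79b at -142 and Btk at -251 bp by covered length; Blnk at 0.0833 and Btk at -0.25 in the gene body; and Cd72 at 0.0833 without WT small pre-B replicate 3. Regions called lower numbered 15, 5 and 14 on the deposited lists for pro-B over pre-pro-B, small pre-B over pro-B and small pre-B over pre-pro-B. Where a peak had to cover a share of 0.5 of the region, 13 were lower in the first, 3 higher in the second and 12 lower in the third. The share of all regions called under that rule was not taken.

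Leaving out 1 library at a time, the 9 genes called numbered 4 to 6 higher and 0 to 2 lower for pro-B over pre-pro-B, 2 higher and 0 to 1 lower for small pre-B over pro-B, and 7 higher and 0 lower for small pre-B over pre-pro-B. In the same order, 16180 to 16197, 15709 to 15736 and 16013 to 16037 genes were tested in these runs. Of them, 4059 to 4151, 1892 to 2092 and 3932 to 4106 were called higher. Lower were 3470 to 3609, 1987 to 2084 and 3420 to 3515. Without Mki67-/- pre-pro-B replicate 4 and the first library of each small pre-B group, 5, 2 and 6 of the 9 were called higher and 0 lower in the 3 comparisons. There 4151 of 16196, 1747 of 15690 and 3842 of 15985 genes were called higher, and 3578, 1717 and 3252 lower. Over the alternatives other than the runs without 1 library, 133 of 167 counts stayed within 1.5 times the reported one. Of 501 values for single genes and regions, 409 were scored as the same. That means the same direction and call, or, with the libraries of 1 genotype alone, where no call is possible, a shift smaller than the SD within groups. Peak numbers carry no read depth, and a weak peak can pass the caller's threshold in 1 library and miss it in the next.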
